A study of Mus musculus with 4 samples.

Results

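The transcripts of the TRAF adaptor proteins, the cellular inhibitor of apoptosis proteins (cIAPs), the ubiquitin-editing enzyme A20 and its ABIN partners were examined in mouse bone marrow-derived macrophages that had received a mimic of the microRNA miR-204-3p. The 10 genes, Traf1, Traf2, Traf3, Traf5, Traf6, Birc2, Birc3, Tnfaip3, Tnip1 and Tnip2, were taken by symbol from a table of 54532 genes. Each symbol matched 1 row, and all 10 passed the filter on low counts that left 13186 genes for testing. Bone marrow cells had been cultured for 7 days in medium with 30% conditioned medium of L929 cells, a fibroblast line that secretes macrophage colony-stimulating factor. They were then transfected for 24 h either with a negative-control mimic (2 libraries) or with the miR-204-3p mimic (2 libraries). The labels name no strain, age or genotype and do not tell whether replicates are different mice or dishes. The p-values therefore rest on the spread between these libraries alone, which may be technical. No untransfected cells were analysed here, and the level of miR-204-3p itself was not examined. The comparison asks which transcripts differ when macrophages receive this microRNA in place of a control duplex.

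TRAF proteins bind the cytoplasmic tails or adaptors of tumour necrosis factor receptors, Toll-like receptors and interleukin-1 receptors and carry the signal to the kinases that activate NF-kB and the MAP kinases, mostly by building or recruiting ubiquitin chains. In resting cells a complex of TRAF3, TRAF2 and the cIAPs keeps the kinase NIK low by tagging it for degradation, and receptors such as CD40 disrupt that complex. A20, with the ubiquitin-binding ABIN proteins, removes or masks ubiquitin chains and so ends the signal, and in macrophages it is a brake on inflammatory gene expression.

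Total counts per library lay between 15899235 and 16837826. Levels are counts scaled to 1e+06 reads (CPM) by the TMM factors of edgeR (trimmed mean of M-values), 0.878 and 0.886 in the control group and 1.14 and 1.13 in the mimic group. A log2 fold change sets the miR-204-3p mimic over the control, with its standard error after ±, and ± after a level is the SD over 2 libraries. The difference between the groups was broad: 60.8% of tested genes passed the threshold, an adjusted p under 0.05 in edgeR's quasi-likelihood test with Benjamini-Hochberg adjustment over all tested genes. Of the tested genes 31.1% were called higher and 29.7% lower, so 51.1% of the called genes were higher, against 71.0% when libraries were scaled by library size alone, without TMM factors. Over all tested genes the median log2 fold change was 0.04, and it was 0.40 with library size alone, so directions are relative to the scaling. Macrophage markers (7 genes) summed to 15890 and 17480 CPM in the control group and 2963 and 2947 CPM in the mimic group. Lyz2 made up most of that sum, and of the 6 tested 5 were called lower and 1, Fcgr1, higher. B cell markers (with Ms4a1 at 0 counts in every library) summed to 250 and 225 CPM against 3.38 and 3.71 CPM, nearly all from Ighm. For 5 dendritic cell markers the sums were 46.9 and 38.0 CPM in the control libraries against 4.37 and 4.58 CPM in the mimic libraries. In the control libraries most of that sum came from Itgax, at 42.72 and 33.55 CPM against 2.55 and 1.86 CPM with the mimic. Of the 4 tested dendritic cell markers 2 were called lower, and Zbtb46 and Xcr1 were not called. The sums for 5 neutrophil markers were 1.73 and 2.27 CPM in the control libraries against 0.781 and 1.36 CPM in the mimic libraries, with Ly6g at 0. Of the 2 tested neutrophil markers Elane was called lower, with 19 and 24 counts against 0 and 0, and S100a8 was not called. All 5 T and NK cell markers had 0 counts in every library, and the 4 fibroblast markers summed to at most 0.437 CPM. The part of these marker differences in the results below was not tested, and in bulk RNA fewer cells of a type and less RNA per cell cannot be told apart.

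Of the 10 genes, 6 were called higher (Traf1, Traf2, Traf3, Traf6, Birc3 and Tnip1), 2 were called lower (Birc2 and Tnip2) and 2 did not pass (Traf5 and Tnfaip3). These 8 called genes of 10 stand beside the 60.8% called among all tested genes, so the count alone says little about them. Both mimic libraries lay above both control libraries for 7 of the 10 genes and below them for 3, where 41.9% of all tested genes did the former and 38.9% the latter. The median log2 fold change of the 10 genes was 0.60, against 0.04 over all tested genes.

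**Figure D1:**
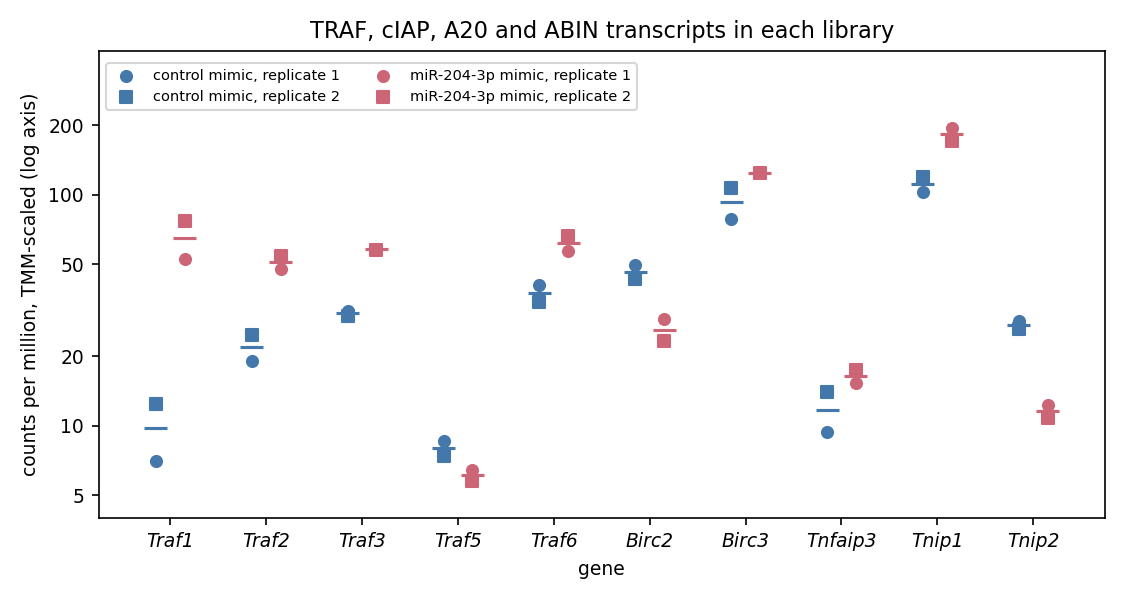
TMM-scaled CPM (log axis) of the 10 genes in each of the 4 libraries, with blue for the control mimic and red for the miR-204-3p mimic, circles for replicate 1, squares for replicate 2 and horizontal bars for group means. The 2 groups of libraries do not overlap for any of the 10 genes, and the gap is widest for Traf1.

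Traf1 changed most. TRAF1 is a family member without a RING domain that pairs with TRAF2 and recruits the cIAPs, and its gene is a known NF-kB target. Traf1 (ENSMUSG00000026875, mm10 chromosome 2, 34941750 to 34961772, minus strand) was at 7.07 and 12.4 CPM in the control libraries, against 53.0 and 76.7 CPM in those with the mimic. Both groups varied between their libraries, but the lowest mimic value was still far above the highest control value. The gene rose 6.65-fold (95% interval 4.65 to 9.5), a log2 fold change of 2.73 ± 0.24 (edgeR adjusted p = 2.8e-07), and 96.4% of all tested genes had a lower log2 fold change.

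Traf2 (mm10 chromosome 2, 25517982 to 25546940, minus strand) encodes the adaptor and scaffold that brings the cIAPs to tumour necrosis factor receptors. It was at 19.1 and 24.7 CPM in the control libraries, against 47.5 and 54.4 CPM in those with the mimic. The groups were clearly apart, and Traf2 rose 2.33-fold (interval 1.82 to 2.98, edgeR adjusted p = 2.1e-05). Of its 50-base words 1.79% occur in other genes, mainly Nlrc3. Nlrc3 had 374 and 408 counts in the control libraries and 919 and 1006 with the mimic, so it was also higher there. Whether reads of these genes were mixed was not tested. Traf3 (chromosome 12, 111166370 to 111267153, plus strand) encodes the adaptor that holds NIK in the cIAP complex and that also serves the interferon-inducing arm of Toll-like and RNA-sensing receptors. Its level was 31.6 and 30.0 CPM against 58.4 and 57.8 CPM, with replicates close together and the groups far apart. Traf3 rose 1.89-fold (interval 1.53 to 2.33, edgeR adjusted p = 6.1e-05).

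Traf6 (chromosome 2, 101678429 to 101701669, plus strand) encodes the ubiquitin ligase that acts downstream of MyD88 and the IRAK kinases at Toll-like and interleukin-1 receptors. It was at 40.7 and 34.5 CPM in the control libraries, against 57.3 and 66.5 CPM in those with the mimic, without overlap. Traf6 rose 1.65-fold (interval 1.32 to 2.05, edgeR adjusted p = 0.00079). Traf6 was also the one gene of the 10 whose 3′ UTR held matches to the seed of miR-204-3p, the bases 2 to 8 through which a microRNA pairs with its targets. The mature microRNA from RefSeq (GRCm38.p6) and the matches in the longest annotated 3′ UTR of Traf6 (GENCODE vM21, 4170 bases, plus strand of chromosome 2) are shown because a mimic of this microRNA was what the cells received. Capitals mark the seed in the microRNA and the bases that complement it in the transcript, with the A after the match included where it is present. The base given for a site is the first base of TCCCAG within the capitals.
mmu-miR-204-3p, chromosome 19, 22750649 to 22750669: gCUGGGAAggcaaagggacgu
Traf6 site at base 666 of the 3′ UTR, 101698153 to 101698181: caggcggcctcTTCCCAGtctgtaagacc
Traf6 site at base 1497, 101698984 to 101699013: gacctgccctgTTCCCAGAgaacgctcaga
Traf6 site at base 1770, 101699257 to 101699285: actgtagttgtTTCCCAGtggagtaataa
Traf6 site at base 2119, 101699606 to 101699634: aagttaaactgTTCCCAGctttaaattgt
Traf6 site at base 3293, 101700780 to 101700809: atgcttcccaaTTCCCAGAatccagaaaaa

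The 3′ UTR of Traf6 thus held 5 matches to TTCCCAG, of which 2 were followed by an A (TTCCCAGA). At least 1 TTCCCAG was found in 24.1% of the 11289 tested genes with an annotated 3′ UTR, and at least 1 TTCCCAGA in 6.87%. At least 5 matches to TTCCCAG were found in 18 of these genes (0.159%), Traf6 included. Among the 823 tested genes with a 3′ UTR at least as long as that of Traf6, 1.58% had as many. Among these 18, 9 genes (Traf6 included) were called higher, 3 lower and 6 neither, and their median log2 fold change was 0.26. Over all tested genes 31.1% were called higher and 29.7% lower, with a median of 0.04, and the difference was not tested. The calls of the 18 genes were not set beside those of genes with a 3′ UTR of like length. The other 9 genes described here had no match even to the shorter TCCCAG, which 51.6% of tested genes with a 3′ UTR held. That of Traf5 is annotated with 225 bases only. The sequence of the transfected mimic is not in the labels, so these matches were sought with the natural microRNA, and a match is a description of letters, not a shown site of action.

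Traf5 (chromosome 1, 191997205 to 192092559, minus strand) encodes an adaptor of lymphocyte receptors that is close in sequence to TRAF3. It was at 8.6 and 7.39 CPM in the control libraries, against 6.45 and 5.79 CPM in those with the mimic. Although the libraries of the groups did not overlap, its log2 fold change of −0.39 ± 0.24 did not pass (edgeR adjusted p = 0.18), with a 95% interval of the ratio from 0.537 to 1.09. With library size alone its log2 fold change was −0.02. Its exons share 205 bases with the antisense gene Gm26879, which had at most 2 counts in a library. Traf5 also overlaps Gstp-ps on the same strand, with 0 shared exon bases. Gstp-ps had 63 and 58 counts in the control libraries and 25 and 26 with the mimic. Whether its reads were mixed with those of Traf5 was not tested.

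**Figure D2:**
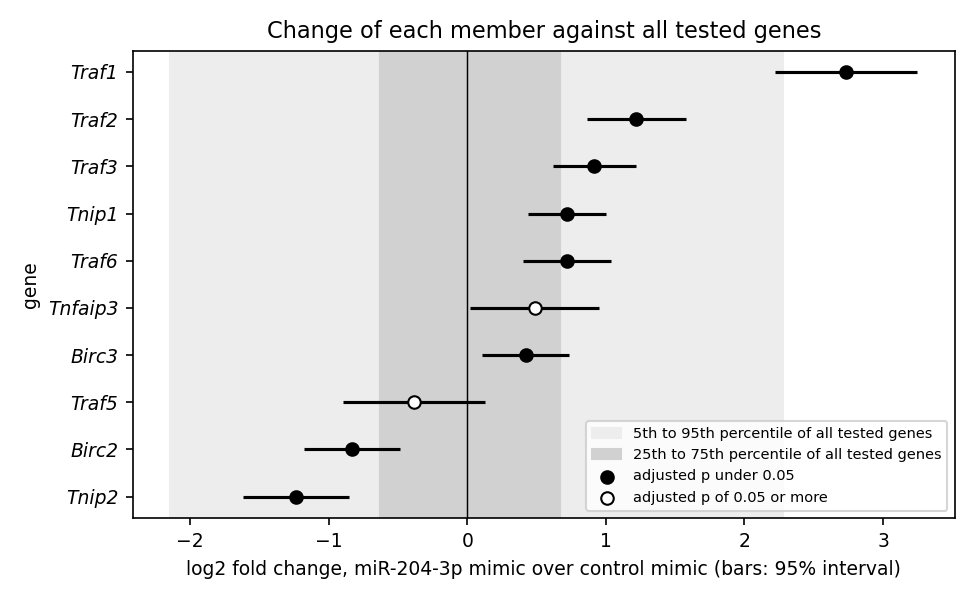
Log2 fold change of each of the 10 genes, miR-204-3p mimic over control mimic, with bars for the 95% interval, filled circles for an edgeR adjusted p under 0.05 and open circles otherwise, over grey bands for the percentiles of all tested genes. Traf1, at 2.73, is the one gene outside the range from the 5th percentile (−2.14) to the 95th (2.28), and Tnip2 (−1.24) and Birc2 (−0.83) are the 2 called lower.

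The genes of the 2 cIAPs moved in opposite directions. Birc2 encodes cIAP1 and Birc3 cIAP2, RING ubiquitin ligases that act with TRAF2 on RIPK1 and NIK, and the genes are neighbours on mouse chromosome 9 (Birc2 7818227 to 7837064, Birc3 7848699 to 7873186, both on the minus strand), 11.6 kb apart. Birc2 was at 49.7 and 43.3 CPM in the control libraries, against 29.0 and 23.2 CPM in those with the mimic. It fell 1.78-fold (log2 fold change −0.83 ± 0.16, edgeR adjusted p = 0.00047), and to a log2 fold change of −0.47 with library size alone.

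Birc3 was at 78.9 and 107 CPM in the control libraries, against 125 and 124 CPM in those with the mimic. One control library was near the mimic libraries and the other well below them. The rise was 1.34-fold (interval 1.08 to 1.66, edgeR adjusted p = 0.022), and it rested on control replicate 1. Without that library the log2 fold change went from 0.42 to 0.20 (edgeR adjusted p = 0.34), without control replicate 2 it was 0.65, and with gene-length offsets it was 0.32 (edgeR adjusted p = 0.06).

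Because a ratio of 2 genes within 1 library does not depend on the scaling of libraries, the balance of the cIAP transcripts was also compared per kilobase of exon. The ratio of Birc3 to Birc2 was 1.45 and 2.27 in the control libraries, against 3.95 and 4.89 in those with the mimic, so that it was higher in both mimic libraries, by 1.28 on the log2 scale. Birc3 made up 59.2% and 69.4% of the summed cIAP level in the control libraries, against 79.8% and 83.0% in those with the mimic. The sum itself, chosen after the values were seen, was 26.6 and 30.9 CPM per kilobase against 31.3 and 29.8, and the groups overlapped. With 2 libraries against 2, an exact two-sided permutation test of such a ratio cannot go below p = 0.333. The genes share little sequence that could mix their reads: 1.49% of the 50-base words of Birc2 occur in transcripts of another gene, mainly Birc3, and 7.56% of those of Birc3, mainly in the gene model Gm7019, which had 4 to 21 counts per library.

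Tnfaip3 (chromosome 10, 19000910 to 19015657, minus strand), which encodes A20, is a known fast NF-kB target. It was at 9.43 and 14.1 CPM in the control libraries, against 15.4 and 17.5 CPM in those with the mimic, with control replicate 2 only just below mimic replicate 1. Its log2 fold change of 0.49 ± 0.22 did not pass (edgeR adjusted p = 0.067), and the 95% interval of the ratio ran from 1.01 to 1.94. Single libraries and scaling moved it across the threshold. The log2 fold change was 0.79 without control replicate 2 (edgeR adjusted p = 0.0071), 0.57 without mimic replicate 1 (adjusted p = 0.038), 0.85 with library size alone (adjusted p = 0.0039) and 0.21 without control replicate 1 (adjusted p = 0.49).

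The ABIN genes parted. Tnip1 (chromosome 11, 54910785 to 54962917, minus strand) encodes ABIN-1, the ubiquitin-binding partner of A20 whose loss in mice leads to inflammatory disease. It was at 103 and 119 CPM in the control libraries, against 194 and 171 CPM in those with the mimic, all mimic values above all control values. Tnip1 rose 1.65-fold (interval 1.35 to 2.0, edgeR adjusted p = 0.00031). Tnip2 (chromosome 5, 34496087 to 34513991, minus strand) encodes ABIN-2, which binds A20 and also the kinase TPL2. It was at 28.5 and 26.2 CPM in the control libraries, against 12.3 and 10.9 CPM in those with the mimic. Tnip2 fell 2.36-fold (log2 fold change −1.24 ± 0.18, edgeR adjusted p = 3.4e-05), and 12.9% of tested genes had a lower log2 fold change. The ratio of Tnip1 to Tnip2 per kilobase, also chosen after the values were seen, was 2.73 and 3.45 in the control libraries and 11.9 in both mimic libraries.

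**Figure D3:**
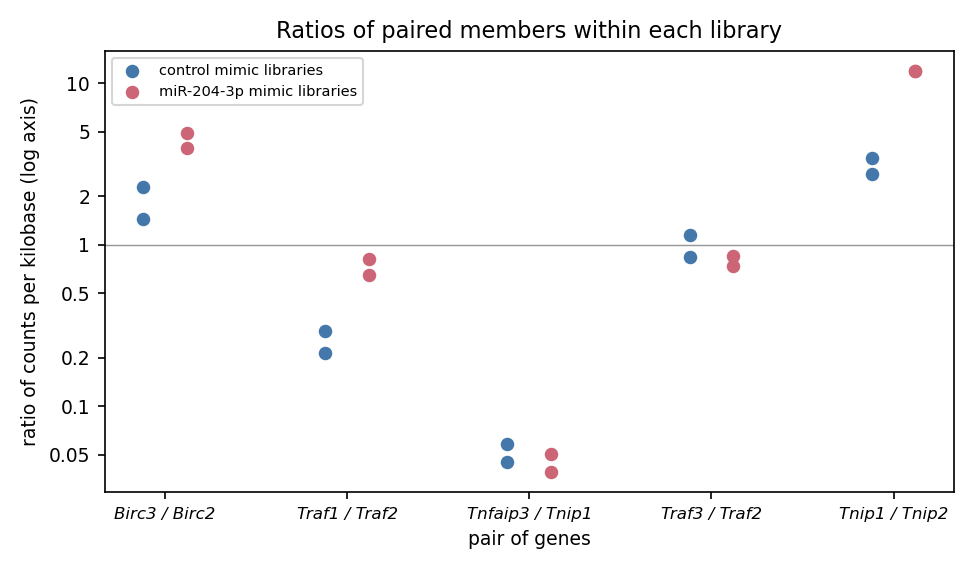
Ratio of the counts per kilobase of 2 genes within each library (log axis), blue for the control mimic and red for the miR-204-3p mimic, with 1 point per library and a grey line at 1. The groups are apart for Birc3 / Birc2 (1.45 and 2.27 against 3.95 and 4.89), Traf1 / Traf2 and Tnip1 / Tnip2, and overlap for Tnfaip3 / Tnip1 and Traf3 / Traf2.

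The remaining ratios placed the other changes side by side. Traf1 per kilobase was 0.214 and 0.292 of Traf2 in the control libraries, against 0.645 and 0.816 in those with the mimic. The ratio of Tnfaip3 to Tnip1 was 0.045 and 0.058 in the control libraries, against 0.0389 and 0.0502 in those with the mimic, and that of Traf3 to Traf2 was 1.15 and 0.844 against 0.854 and 0.738. These last 2 ratios overlapped between the groups, and the ratio of Traf3 to Traf2 was chosen after the values were seen.

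Levels of different genes were compared as CPM per kilobase. In the control libraries Tnip1 was highest (31.3 ± 3.25), followed by Birc3 (18.6 ± 4.01), then Tnip2 (10.2 ± 0.618) and Birc2 (10.2 ± 0.994), whose ranges overlapped. Traf6 (4.77 ± 0.559), Traf2 (4.29 ± 0.775) and Traf3 (4.19 ± 0.15) formed a group of overlapping neighbours, and Traf5 (1.75 ± 0.187), Tnfaip3 (1.63 ± 0.454) and Traf1 (1.11 ± 0.43) were lowest, each overlapping the next. In the mimic libraries Tnip1 (51.5 ± 4.57) and Birc3 (24.9 ± 0.17) again came first. Traf2 (9.98 ± 0.949) came next and stood above Traf3 (7.91 ± 0.0617). The ranges of Traf3, Traf6 (7.85 ± 0.828), Traf1 (7.35 ± 1.9) and Birc2 (5.7 ± 0.894) overlapped from each to the next, so Traf1 had moved from the lowest place to the middle of the order. Tnip2 (4.32 ± 0.388), Tnfaip3 (2.28 ± 0.207) and Traf5 (1.34 ± 0.103) followed, each separate from the next.

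The promoters, taken from RefSeq (GRCm38.p6) as the 250 bases before to 50 bases after a start, gave 12 sequences for the 10 genes. The kB consensus, the NF-kB binding motif, was searched on both strands as GGGRNNYYCC (R is A or G, Y is C or T, N is any base). It was found in the promoters of Tnip1 and Traf3 and in 1 of the 2 promoters of Tnfaip3. Counted by promoter, 8.46% of 32851 RefSeq promoters held it. The windows are shown because several of these genes are known NF-kB targets. Capitals mark the bases that match, and overlapping matches are merged.
Tnip1, chromosome 11, 54962978 to 54963007, minus strand, match from 58 bases before the start: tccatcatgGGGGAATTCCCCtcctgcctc
Tnfaip3, chromosome 10, 19015403 to 19015432, minus strand, match from 12 bases before the start: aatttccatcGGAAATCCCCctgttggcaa
Tnfaip3, chromosome 10, 19015516 to 19015545, minus strand, match from 125 bases before the start: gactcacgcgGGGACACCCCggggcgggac
Traf3, chromosome 12, 111166350 to 111166379, plus strand, match from 10 bases before the start: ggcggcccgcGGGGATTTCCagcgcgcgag

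Of the 3 genes with such a match, Tnip1 and Traf3 were called higher and Tnfaip3 was not called. Among the genes without one, Traf1, Traf2, Traf6 and Birc3 were also called higher, Birc2 and Tnip2 lower, and Traf5 was not called. Over all tested genes 31.1% were called higher and 29.7% lower, and a link between match and change was not tested. A looser pattern, GGG and CC with any 5 bases between them, was in the promoters of Traf2, Traf3, Traf5, Traf6, Birc3, Tnfaip3 and Tnip1 and in 50.8% of all promoters. No promoter of the 10 genes held an interferon-response core, GAAA repeated after any 2 bases, which 3.44% of all promoters held. The letters of either kB pattern were not in the windows of Traf1, Birc2 and Tnip2, which says nothing of sites elsewhere.

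Other genes of the same pathway were followed in 9 lists of 88 genes, of which 86 were tested. Of these, 29 were called higher and 23 lower, against 31.1% and 29.7% of all tested genes, and 47 and 13 with library size alone. The median log2 fold change was 0.17, against 0.04 over all tested genes. The edgeR adjusted p of the genes named by rule lay between 9.1e-11 and 0.01. The NF-kB subunits and their inhibitors stood furthest to the higher side. Of 11 genes 8 were called higher and 1 lower, with a median of 0.86, and with library size alone 8 and 0, with a median of 1.22. Nfkbiz, a nuclear NF-kB cofactor, rose by 1.76 ± 0.16 on the log2 scale, and Nfkb1, the p105 precursor of p50, by 1.22 ± 0.14. Nfkbid, which encodes an atypical nuclear IkB protein, fell by 0.83, a call that did not hold with library size alone, at −0.47. Outside the rule for named genes and chosen after the values were seen, Relb, the partner of p52 that NIK signalling releases, rose by 1.28 ± 0.15, and Nfkbia, which encodes the inhibitor that NF-kB itself induces, was at 169 ± 34.1 against 144 ± 17.1 CPM with overlapping groups (log2 fold change −0.23 ± 0.15, edgeR adjusted p = 0.20). The log2 fold change of Nfkbia was −0.44 when control replicate 1 was left out (edgeR adjusted p = 0.024), −0.38 when mimic replicate 2 was left out (edgeR adjusted p = 0.031) and 0.13 with library size alone.

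Of 13 tested receptors that bind TRAFs, 2 were called higher and 6 lower (median −0.21), beside 31.1% and 29.7% of all tested genes. The balance turned on the scaling: with library size alone 5 were called higher and 4 lower (median 0.15), and with gene-length offsets 4 and 6 (median 0.02). Without control replicate 1, 1 was called higher. Cd40, the costimulatory receptor that uses TRAF2, TRAF3 and TRAF6, went from 12.4 ± 1.41 to 79.6 ± 4.26 CPM, a rise of 6.39-fold next to the 6.65-fold of Traf1. Ltbr, the lymphotoxin beta receptor, rose by 0.51 ± 0.14, a call that was lost without control replicate 1 (log2 fold change 0.34, edgeR adjusted p = 0.11). Tnfrsf9, which encodes the receptor 4-1BB that recruits TRAF1 and TRAF2, fell 25.2-fold, from 78.2 ± 4.64 to 3.09 ± 0.104 CPM. Tnfrsf1b, the second tumour necrosis factor receptor, fell 2.22-fold.

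Of 11 TRAF relatives and adaptors 5 were called lower and 1 higher (median −0.23), beside 29.7% and 31.1% of all tested genes. With library size alone the counts were 4 and 2 (median 0.14). Tifa, an adaptor that binds TRAF2 and TRAF6, fell 4.68-fold from 69.1 ± 2.57 to 14.8 ± 0.271 CPM, and Traf7, a ligase with WD repeats that is the most distant TRAF, fell 2.24-fold. The other lower genes were Traf4, Traf3ip1 and Traf3ip3, with log2 fold changes of −0.74, −0.98 and −1.41, named here after their values were seen. With library size alone Traf4 was no longer called, at −0.37, and Traf3ip3 shares 420 exon bases with the antisense gene A130010J15Rik, which had 95 to 242 counts per library. Trafd1, a feedback regulator with a TRAF-type zinc finger, rose 1.7-fold.

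Of 9 adaptors upstream of TRAF6 and TRAF3, 3 were called higher and 4 lower (median −0.17), beside 31.1% and 29.7% of all tested genes. With library size alone the counts were 3 and 2 (median 0.20). Ticam2 and Myd88, adaptors of Toll-like receptors, rose 2.22-fold and 2.16-fold, and so did Tirap (log2 fold change 1.01 ± 0.15, outside the rule). Irak2, a kinase-like partner of TRAF6, fell 2.09-fold and Mavs, the mitochondrial adaptor of RNA sensors, 1.65-fold. Irak1 and Irak4, also outside the rule, had log2 fold changes of −0.46 and −0.72, and both calls were lost with library size alone (−0.09 and −0.35), that of Irak1 also without control replicate 2 (−0.33). Ticam2 shares 838 exon bases with Tmed7 on the same strand (2953 to 3886 counts per library), so reads from that stretch cannot be told apart by strand. Myd88 shares 290 exon bases with the antisense gene Acaa1a, Irak4 395 with the antisense gene Twf1 and Tirap 39 with the antisense gene Srpr (4687 to 8855 counts per library), so their counts could be mixed where strand was not used.

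The kinases TAK1, IKK, NIK and ASK1 were listed with their binding subunits and adaptors, and of these 13 genes 6 were called higher and 1 lower (median 0.26), beside 31.1% and 29.7% of all tested genes. With library size alone the counts were 11 and 1 (median 0.63). The 6 were the kinase genes Ikbkb, Map3k14 and Map3k5 and the adaptor genes Tab2, Azi2 and Tbkbp1, of which Ikbkb, Map3k14, Azi2 and Tbkbp1 are outside the rule and were named after their values were seen. Map3k5, the kinase ASK1 that TRAF2 engages, rose 2.14-fold, and Tab2, the ubiquitin-reading subunit of the TAK1 complex, 1.86-fold. Ikbke, an interferon-inducing kinase of the IKK family, fell 3.05-fold. Map3k14, which encodes NIK, the kinase whose protein the TRAF3 and cIAP complex degrades, rose from 20.4 ± 1.15 to 33.4 ± 1.80 CPM (log2 fold change 0.71 ± 0.16, edgeR adjusted p = 0.0014).

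**Figure D4:**
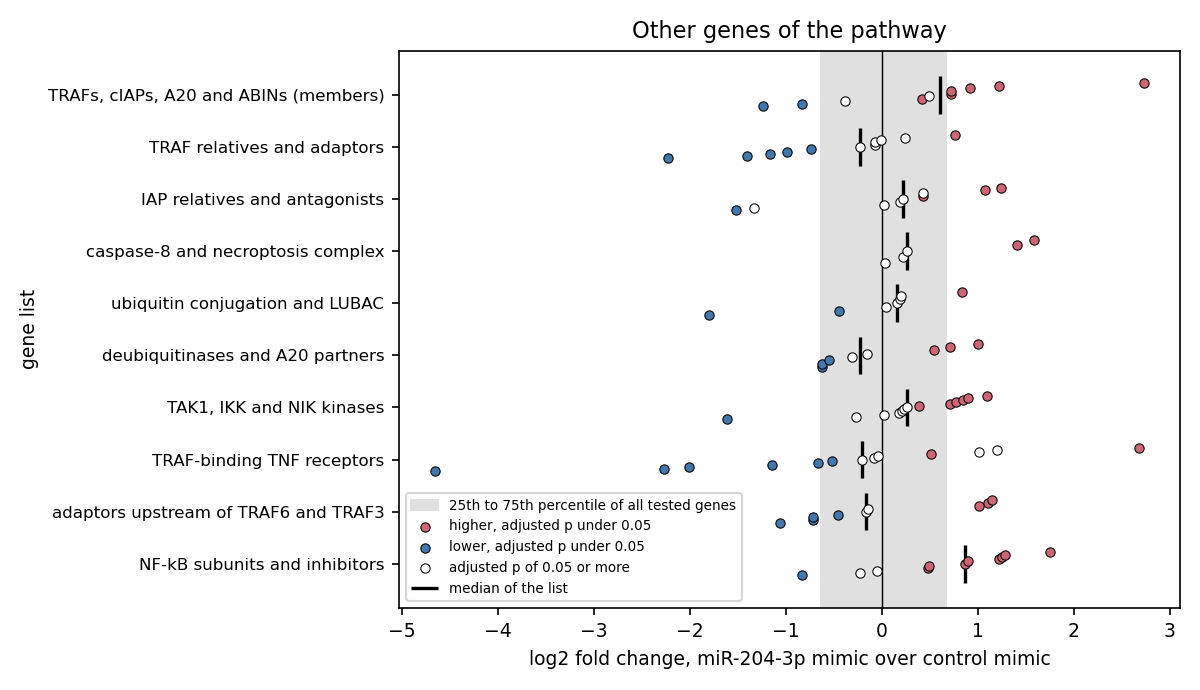
Log2 fold changes, miR-204-3p mimic over control mimic, of the 10 genes (top row) and of the tested genes of 9 pathway lists, 1 point per gene, red for called higher, blue for called lower and white for an adjusted p of 0.05 or more, with a black bar at each list's median and a grey band from the 25th to the 75th percentile of all tested genes. NF-kB subunits and inhibitors have the highest median (0.86), and the lowest single value is that of Tnfrsf9 (−4.66).

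Enzymes that build and trim the ubiquitin chains around A20 were called in both directions. Of 7 genes of ubiquitin conjugation and of the linear ubiquitin assembly complex LUBAC, 1 was called higher and 2 lower (median 0.16). Over all tested genes 31.1% were called higher and 29.7% lower. With library size alone 4 were called higher and 1 lower (median 0.52), and with gene-length offsets the median was −0.11. Rbck1, the HOIL-1 subunit of LUBAC, fell 3.47-fold from 246 ± 2.61 to 70.9 ± 4.81 CPM. Sharpin, another subunit, fell 1.36-fold, a call that did not hold with library size alone, at −0.08, and without control replicate 1 (−0.42, edgeR adjusted p = 0.066). Ube2l3, a ubiquitin-conjugating enzyme, rose 1.78-fold and shares 1670 exon bases with the antisense gene Ydjc. Ydjc had 861 and 897 counts in the control libraries and 144 and 151 with the mimic. Of the 50-base words of Ube2l3 32.2% are shared with other genes, so its counts are uncertain.

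Deubiquitinases and A20 partners had 3 genes called higher and 3 lower of 8 (median −0.23), beside 31.1% and 29.7% of all tested genes. With library size alone 3 were called higher and 0 lower (median 0.13). Rnf11 and Otud7b rose by 1.0 ± 0.13 and 0.71 ± 0.13 on the log2 scale, and Spata2, which links the deubiquitinase CYLD to LUBAC, by 0.54 ± 0.14. RNF11, ITCH and TAX1BP1 work with A20 in one complex. Their genes did not move as 1: Itch and Tax1bp1 fell 1.54-fold each while Rnf11 rose 2.0-fold, and with library size alone the calls of Itch and Tax1bp1 were lost at log2 fold changes of −0.26 and −0.26. That of Tax1bp1 was −0.40 without mimic replicate 2. Spata2 shares 129 exon bases with the antisense gene Rnf114, which had 2550 to 3963 counts per library. Cyld, named like Spata2 after its values were seen, had a log2 fold change of −0.55 ± 0.17, whose call was lost with library size alone (−0.18), without control replicate 1 (−0.44) and without mimic replicate 2 (−0.33). It was −0.85 without mimic replicate 1.

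Genes that act beside the cIAPs in cell death were also followed. Among 9 IAP relatives and IAP antagonists 3 were called higher and 1 lower (median 0.22), a share of higher calls close to the 31.1% of all tested genes. With library size alone 6 were called higher and 1 lower (median 0.59). Birc6, a giant IAP with a ubiquitin-conjugating domain, rose 2.11-fold. Diablo and Htra2 encode mitochondrial proteins that neutralise IAPs, and they moved in opposite directions, Diablo from 3.23 ± 0.156 to 7.66 ± 1.05 CPM and Htra2 from 99.7 ± 11.8 to 34.7 ± 3.58 CPM. Of their 50-base words 37.3% and 33.8% are shared with other genes, so their counts are uncertain. Naip2, outside the rule, had a log2 fold change of 0.43, whose call was lost when control replicate 1 (0.30) or mimic replicate 2 (0.32) was left out. It shares 19.1% of its words with other genes, mainly Naip1. In the caspase-8 and necroptosis complex 2 of 5 genes were called higher and 0 lower (median 0.26), beside 31.1% and 29.7% of all tested genes. With library size alone all 5 were called higher (median 0.62). Cflar, which encodes the caspase-8 inhibitor c-FLIP, rose from 76.1 ± 13.1 to 201 ± 0.0758 CPM, and Mlkl, the executor of necroptosis, from 9.85 ± 1.96 to 29.5 ± 2.25 CPM.

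For each of the 10 genes the tested gene with the most similar pattern over the 4 libraries was looked up, by the Euclidean distance of centred log2 CPM among 9424 or 9425 genes whose mean log2 CPM was 3 or more. The 4 libraries form 2 groups, so genes with a like group difference are near each other by construction. Traf1 had no close neighbour: the nearest gene, Tmem246, was at a distance of 0.231, and no gene lay within 0.2. The other 9 genes had between 70 and 330 genes within 0.2, and their nearest genes were Slc38a7 for Traf2, Samd4b for Traf3, Bst2 for Traf5, Tapt1 for Traf6, Pdha1 for Birc2, Tm4sf19 for Birc3, Mcm6 for Tnfaip3, Taf12 for Tnip1 and Kmt5c for Tnip2, at distances of 0.0161 to 0.0439.

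The 10 genes kept their direction in all 10 processing alternatives, and 8 of them kept their side of the threshold in each; the exceptions were Birc3 and Tnfaip3. Traf1 ranged from 2.37 without control replicate 1 to 3.18 without control replicate 2. For Traf6 and Tnip1 library size alone gave a log2 fold change of 1.08 each instead of 0.72.

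**Figure D5:**
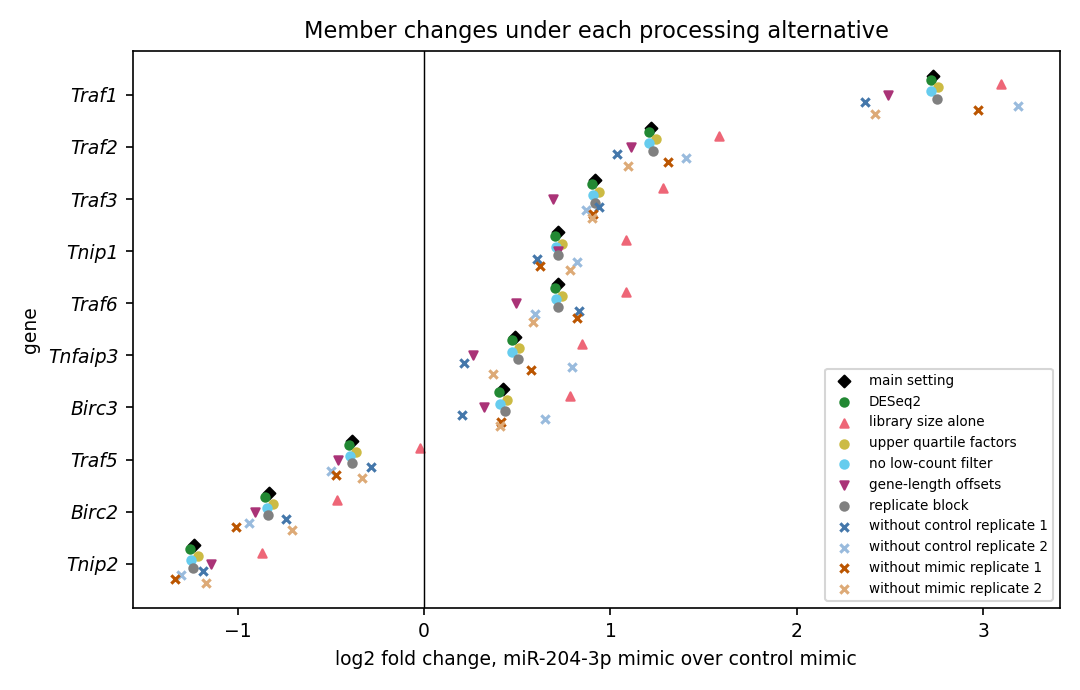
Log2 fold change of each of the 10 genes, miR-204-3p mimic over control, in the main setting (black diamonds) and under 10 processing alternatives, with crosses for fits that leave out 1 library. All points of a gene lie on one side of 0, and library size alone (upward triangles) lies to the right of the main value for every gene. Downward triangles are gene-length offsets.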

How the data were processed

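RNA-seq was done on mouse bone marrow-derived macrophages. Per the labels' protocols, 4 NEBNext Ultra libraries were prepared, and the submitters' processing notes name HISAT2 and mm10. The sources used here do not state the counting program, its version or its strand setting. The authors deposited 1 table of unnormalized whole-number counts with gene coordinates and lengths, the latter equal to merged exon length in GENCODE vM21 for 98.0% of shared identifiers and for all 10 genes described.

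Counts were tested in R 4.3.3 with edgeR 4.0.16 (glmQLFit and glmQLFTest, two-sided, TMM factors, filterByExpr by group, Benjamini-Hochberg at 0.05 over all 13186 tested genes), with group as the one model term. Standard errors were derived from the F statistic. The code was tested on simulated data. The alternatives were DESeq2 1.42.0, library size alone, upper quartile factors, no low-count filter, gene-length offsets, the replicate number as a block and leaving out each library. Pathway genes were named by a rule: in each list and each direction, at most 2 that passed, taken by smallest p; and for each of the 10 genes the 1 nearest in pattern. Exceptions are marked. The genes and lists were chosen with earlier results of these data known, so no pattern is independent support. Lists were counted, not tested as sets. Intervals cover the spread between libraries as modelled.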

Additional observations from a re-analysis of the deposited data

How the results depend on the processing

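All 10 genes kept their direction in 100 of 100 refits (10 genes, 10 alternatives), and 94 kept their side of the threshold. The exceptions were 2 lost calls of Birc3 and 4 gained calls of Tnfaip3, the latter including the fit with the replicate number as a block (log2 fold change 0.51, edgeR adjusted p = 0.033). With that block no other gene of the 10 changed its call. The labels give both groups replicates 1 and 2, but deviations of same-numbered libraries from their group means correlated at 0.024 across genes, so the numbers were not taken to pair the samples. Library size alone had the widest effect: 2513 genes were called lower instead of 3921, and in the pathway lists 47 were called higher and 13 lower instead of 29 and 23. It turned the median log2 fold change of 4 lists from below to above 0, namely TRAF relatives and adaptors (0.14), deubiquitinases and A20 partners (0.13), TRAF-binding receptors (0.15) and adaptors upstream of TRAF6 and TRAF3 (0.20). Gene-length offsets turned the median of ubiquitin conjugation and LUBAC to −0.11 and that of TRAF-binding receptors to 0.0215. Without the low-count filter the median over all genes was 0.23. Which scaling is closer to the RNA content of the cells was not tested. Of 290 refits of the 29 pathway genes named by rule, 284 kept their side of the threshold, 6 lost it and 0 reversed. Fits without 1 library leave a group with a single library, which is assumed to vary like the others.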
